A study of Mus musculus with 447 samples.

Results

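The cells compared here all carried the genotype label Pdx1CreNgn3KONeurod1OE and the title set number 2, and they were divided by the last number of their titles. They made up 45.9% of the 447 cells of the series. The low-numbered block held 50.2% of them and the high-numbered block 49.8%, with the bound near the middle of the numbering. According to the series' design text, GFP-positive cells were sorted from E15.5 mice with a Pdx1-driven, inducible Cre recombinase (Pdx1CreER, written Pdx1Cre in the labels), a floxed Neurog3 gene (Ngn3fl) and Neurod1 overexpression (Neurod1OE). Each well of a plate held 1 cell, and its RNA was read by Smart-seq3. By their labels both blocks share the Cre driver, the Neurog3 deletion and the Neurod1 overexpression, and neither holds cells labelled without them. Whether each cell lost Neurog3 was not shown by the counts. A set 2 of Pdx1CreNeurod1OE cells, with the same driver and overexpression but without the Neurog3 deletion, was split by title number, at a bound also known from the level of the pseudogene Gm12338, into a low-numbered block of 51 cells and a high-numbered block of 66 cells, and its values stand beside those of the Ngn3KO blocks. The number of animals, the time of Cre induction and the promoter of the overexpressed gene were not stated in the labels. The labels do not say whether the number blocks are plates, litters, embryos or days. Plate, litter and embryo therefore cannot be told apart here, each block counts as 1 sample, and no p-value was computed.

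The endocrine pancreas arises from Pdx1-expressing progenitors in which the transcription factor Neurog3 starts the endocrine programme and NeuroD1 carries it on. The hormone cells that follow are alpha cells (glucagon, Gcg), beta cells (insulin, Ins1 and Ins2), delta cells (somatostatin, Sst), PP cells (pancreatic polypeptide, Ppy) and epsilon cells (ghrelin, Ghrl). Peptide YY (Pyy) is made by many fetal islet cells.

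Reads per cell ranged from 108251 to 1507050 in the low-numbered block (median 334441) and from 61805 to 864347 in the high-numbered block (median 348128). The median number of detected genes was 7097 and 7654.5, and 6729 and 7478 after each cell was thinned to the same number of reads, with 11 and 20 shallower cells left out. Levels are CPM, counts scaled to 1000000 gene reads, of the counts summed over a block unless a single cell is named. A log2 ratio is always low-numbered over high-numbered block after 1 CPM was added to each, and a fold is its antilog. A gene was called measured when 1 block reached 10 CPM in its sum and 10% of its cells held a read. Of 10046 measured genes, 687 (6.84%) were at least 2-fold higher and 516 (5.14%) at least 2-fold lower in the low-numbered block. These shares are the background for all counts of list members below. The median log2 ratio of all of them was 0.03. With the mean of the per-cell CPM and with each gene's top cell left out as further conditions, 509 and 362 genes were 2-fold apart.

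The bound between the blocks is marked by Gm12338, a processed pseudogene, and the bound was proposed with the level of this gene known. Its values are therefore a description of the bound and no result. Gm12338 lies on the minus strand at chr11:75599763-75599954 (mm10). In the low-numbered block it ranged from 26.9 to 542 CPM with a median of 116.8, and in the high-numbered block from 0 to 17.6 CPM, with 78 cells at 0. The blocks do not overlap. The last 5 cells before the bound had 82.4, 126.8, 73.9, 208 and 118.7 CPM, and the first 5 cells after it each had 0.

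**Figure D1:**
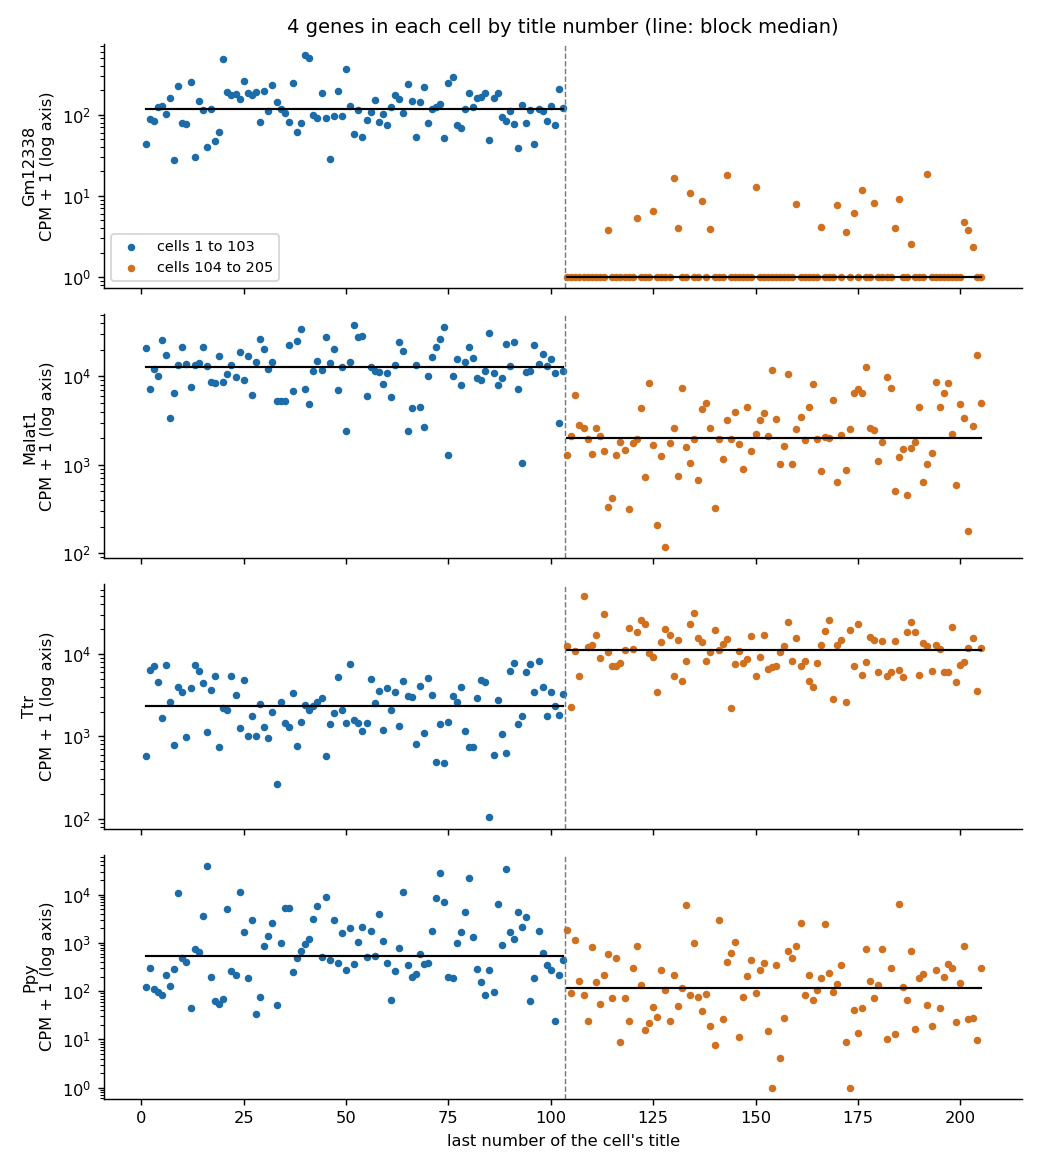
Level of Gm12338, Malat1, Ttr and Ppy in each cell (CPM plus 1, log axis) against the last number of the title, with the median of each block as a black line and the bound dashed. Gm12338 separates the blocks without overlap, Malat1 and Ttr step in opposite directions with overlap, and Ppy is spread widely on both sides.

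Reads of a processed pseudogene can be shared with the gene it was copied from, so its sequence is shown. All bases of Gm12338 in GENCODE M21 (GRCm38, the mm10 build) are identical to the coding part of Cox7c, a subunit of cytochrome c oxidase on the minus strand at chr13:86044816-86046904, and no letter is in capitals because no base differs:
Gm12338: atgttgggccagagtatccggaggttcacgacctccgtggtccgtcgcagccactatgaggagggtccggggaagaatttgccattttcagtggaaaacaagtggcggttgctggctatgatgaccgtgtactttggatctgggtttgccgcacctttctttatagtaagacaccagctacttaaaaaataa
Cox7c itself stood at 513 CPM in the low-numbered block and 404 CPM in the high-numbered block. Gm12338 took 20.7% of the reads of the pair in the low-numbered block and 0.353% in the high-numbered block. The pair together had 647 and 405 CPM, a log2 ratio of 0.67, against 5.80 for Gm12338 alone. The treatment of reads that match both copies was not stated, and the level of Gm12338 is uncertain for that reason.

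A second such pair was set apart in the Ngn3KO blocks. Rpl34-ps1, a processed pseudogene on the plus strand at chr6:71124610-71124963, had 89.8 CPM in the low-numbered block and 4.82 CPM in the high-numbered block. Per cell it ranged from 0 to 232 CPM (median 71.1) and from 0 to 35.9 CPM (median 2.97), so the blocks overlap. It is 99.4% identical to Rpl34, a protein of the large ribosomal subunit, over 354 bases. The stretch of the coding part with the most differing bases is shown, with the differing base in capitals, because the copies are nearly alike:
Rpl34-ps1: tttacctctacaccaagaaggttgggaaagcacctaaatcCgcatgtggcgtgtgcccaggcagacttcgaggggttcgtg
Rpl34: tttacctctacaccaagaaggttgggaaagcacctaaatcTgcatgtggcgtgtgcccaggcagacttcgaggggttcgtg
Rpl34 went the other way, with 291 and 445 CPM, and the share of the pair assigned to the pseudogene was 23.6% and 1.07%. In the Pdx1CreNeurod1OE blocks Rpl34-ps1 had 6.07 and 6.59 CPM, below the level at which a gene was counted as measured.

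Neurog3, the deleted gene, was at a low level in both blocks and was read in more cells of the low-numbered block. It had reads in 36 cells (34.95%, 95% Clopper-Pearson interval 25.8 to 44.98%) of the low-numbered block and in 7 cells (6.86%, 2.80 to 13.6%) of the high-numbered block. That is 4.20 CPM (95% Poisson interval 3.61 to 4.85) and 1.71 CPM (1.31 to 2.19), both under the 10 CPM asked of a measured gene. The highest single cells had 142.7 and 128.9 CPM. The Pdx1CreNeurod1OE blocks, without the deletion, had 4.35 and 3.42 CPM. The deleted stretch of the gene was not stated, and the counts do not tell where in the gene the reads lie. Neurod1, the overexpressed gene, stood at 292 CPM (287 to 298) and 291 CPM (286 to 297), a log2 ratio of 0.01. Per cell it ranged from 0 to 1577 CPM (median 222) and from 30.6 to 1328 CPM (median 224), with full overlap. These intervals cover counting error only, as do all others in the text.

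Nearly all cells of both blocks reached 1000 CPM of Gcg, a limit that does not name a cell type. It also takes in cells with far more insulin or Sst than Gcg, described below. Gcg was at 88757 and 81594 CPM, and 98.1% and 99.02% of cells had at least 1000 CPM of it. Within the low-numbered block it ranged from 816 to 262022 CPM with a median of 88847, and within the high-numbered block from 747 to 186646 CPM with a median of 78601. All 16 pan-endocrine markers were measured, none was 2-fold higher and 2 (12.5%) were lower, against 6.84% and 5.14% of all measured genes. The lower quartile of Gcg differed more than the median, at 16304 CPM in the low-numbered block and 47614 CPM in the high-numbered block.

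Hormones beside glucagon differed between the blocks. Ppy ranged from 23.2 to 39420.4 CPM per cell in the low-numbered block (median 522) and from 0 to 6292 CPM in the high-numbered block (median 117.4). The ranges overlap, but 41 cells (39.8%, 30.3 to 49.9%) against 9 cells (8.82%, 4.11 to 16.1%) reached 1000 CPM, and each of those cells also reached 1000 CPM of Gcg. In summed counts Ppy was 2254 and 433 CPM, a 5.20-fold difference. Pyy was 17470.4 and 6103 CPM, 2.86-fold apart, with per-cell medians of 11702 and 3861 CPM and overlapping ranges (326 to 161927 and 192.6 to 34443 CPM). Of the 7 PP markers 5 were measured and 3 were at least 2-fold higher (Ppy, Pyy and the tetraspanin Tspan8), with a median log2 ratio of 1.52 against 0.03 for all genes. Among cells with Gcg as the single hormone at 1000 CPM (47 and 76 cells), the median of the list was 0.64. That value is the ratio of Ppy itself, and the subset leaves out every cell at 1000 CPM of Ppy. The fall is therefore partly fixed by the choice of cells. Pyy, which was not used in that choice, was at 0.90. Cells with at least 2 of glucagon, insulin, somatostatin, pancreatic polypeptide and ghrelin at 1000 CPM were 54 (52.4%, 42.4 to 62.4%) and 25 (24.5%, 16.5 to 34.02%).

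**Figure D2:**
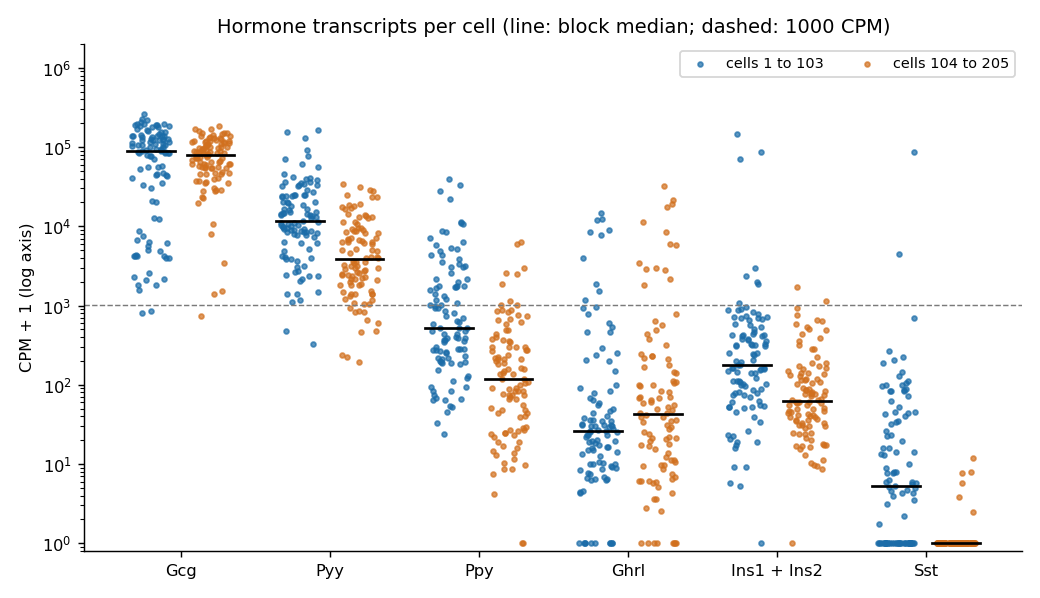
Level of 6 hormone transcripts per cell (CPM plus 1, log axis) in the low-numbered block and the high-numbered block, each point 1 cell, with the block median as a black line and 1000 CPM dashed. Ppy and Pyy medians were higher in the low-numbered block (522 against 117.4 and 11702 against 3861 CPM), while the highest insulin and Sst levels are single cells of that block.

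High insulin levels were found in 3 cells of the low-numbered block. The cells with title numbers 53, 28 and 86 had 130736, 79386.6 and 49441.6 CPM of Ins2, and each also had at least 20563 CPM of amylin (Iapp), 23133 CPM of the imprinted gene Nnat and 3431 CPM of neuropeptide Y (Npy). They also held 407 to 1749 CPM of the purine receptor P2ry1, and Gcg at 816 to 2299 CPM, far under the block's median. The beta-cell factors Pdx1 and Nkx6-1 were at 111.2 to 186.5 and 238 to 491 CPM in them. Mafa, a factor of mature beta cells, was at 0 in cells 53 and 28 and at 41.1 CPM in cell 86. In the high-numbered block the highest insulin level was 1692 CPM (Ins1 plus Ins2), in a cell with 186646 CPM of Gcg. At least 1000 CPM of insulin was reached by 8 cells (7.77%, 3.41 to 14.7%) and 2 cells (1.96%, 0.238 to 6.90%).

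Summed levels of some beta-cell genes were higher in the low-numbered block, and others were within 2-fold. Ins2 was at 7350.0 and 102.25 CPM, Ins1 at 1391 and 52.4 CPM, Nnat at 2654 and 89.6 CPM and Npy at 479 and 18.5 CPM. P2ry1, which is not among the beta markers, had 4277 reads in 37 cells of the low-numbered block and 0 reads in the high-numbered block. Most of these reads were in cells 53, 28 and 86. Against a floor of 3 reads over the block it was at least 1195-fold higher, without the 1 CPM added elsewhere. Of 13 beta markers 11 were measured and 6 were at least 2-fold higher, with a median log2 ratio of 1.42, or 0.41 by the mean of per-cell CPM. Within 2-fold were Iapp (0.63), Ucn3 (0.32), Pdx1 (0.30), Slc30a8 (0.13) and G6pc2 (-0.30). Without the cells at 1000 CPM of insulin or Sst, an alternative chosen after seeing the data, the list median was 0.19. There the ratio of Ins1 changed sign to -0.30, and those of Nnat, Ins2, P2ry1 and Npy were 0.67, 1.36, 2.22 and 2.56, against 4.87, 6.15, 6.64 and 4.62 with all cells. The per-cell medians of Ins2 were 149.6 and 39.6 CPM, and the per-cell ranges overlap (0 to 130736 and 0 to 1066 CPM).

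Somatostatin was near absent from the high-numbered block. There 6 cells (5.88%, 2.19 to 12.4%) had any Sst read, 13 reads in all, and the highest had 10.9 CPM. In the low-numbered block the share was 63 (61.2%, 51.1 to 70.6%). The cell numbered 74, with 87548 CPM of Sst and 2369 CPM of the delta-cell factor Hhex, held 88.5% of the block's Sst reads, and cell 85 had 4485 CPM with 834 CPM of Hhex. Cell 74 also carried 7051 CPM of Ppy, 70675 CPM of Pyy and 1619 CPM of the acinar enzyme gene Cel, while most other cells of the block had Sst at low levels (median 4.29 CPM). The sum was 499 against 0.358 CPM, a log2 ratio of 8.52, or 5.55 with the top cell of each block left out.

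Ghrl, Cck, Cartpt and Calca were higher in the high-numbered block, unlike the peptide genes Npy and Iapp, whose log2 ratios were 4.62 and 0.63. Ghrl was at 734 and 1740 CPM, with per-cell medians of 24.8 and 41.7 CPM and overlapping ranges (0 to 14776 and 0 to 32313 CPM). At 1000 CPM of Ghrl were 10 cells (9.71%, 4.75 to 17.1%) and 14 cells (13.7%, 7.71 to 21.96%), intervals that overlap. By the mean of per-cell CPM its log2 ratio was -0.87 in place of -1.24, and among cells with Gcg alone it was 0.23, a subset that leaves out cells rich in Ghrl. Cck, the gut hormone cholecystokinin, was at 8.46 and 215 CPM, with reads in 16 and 47 cells. A single cell held 57.7% of its reads in the high-numbered block, and without the 10 cells on each side of the bound the log2 ratio was -2.49 in place of -4.51. Cartpt, an appetite-regulating neuropeptide, was at 34.4 and 384 CPM with reads in 44 and 78 cells, and a single cell held 64.9% of the reads of the high-numbered block. Calca, which encodes calcitonin and its gene-related peptide, was at 7.91 and 93.5 CPM with reads in 14 and 43 cells. The calcitonin receptor gene Calcr was lower as well, at 21.5 and 84.4 CPM.

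Transcription factors of islet cells were mostly within 2-fold. Of 24 listed factors 22 were measured. Of these, 5 (22.7%) were at least 2-fold higher and none lower, against 6.84% and 5.14% of all measured genes. The median log2 ratio was 0.26. The 5 were Hhex, the beta-cell factor Nkx6-1, the glucose-responsive factor Mlxipl, the ETS factor Etv1 and the zinc finger factor St18. Hhex (17.6 and 0.633 CPM), Nkx6-1 (63.5 and 23.1 CPM) and Mlxipl (51.8 and 20.1 CPM) had 67.9%, 23.4% and 39.8% of the low-numbered block's reads in a single insulin or Sst cell each. Without the cells at 1000 CPM of insulin or Sst Nkx6-1 was at a log2 ratio of 0.62, Mlxipl at -0.21 and Hhex at 1.19. Etv1, by contrast, was read in every cell, at 817 and 373 CPM with per-cell medians of 861 and 360.2 CPM and overlapping ranges (16.7 to 2807 and 24.6 to 1659 CPM). The alpha-cell factors Irx1, Irx2 and Pou3f4 stood close together, with log2 ratios of 0.13 for Irx1, -0.43 for Irx2 and -0.24 for Pou3f4. Pan-endocrine factors were between 0.11 and 0.63 (Isl1, Pax6, Insm1, Nkx2-2 and Rfx6), and Fev and Pdx1 were at -0.19 and 0.30.

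Genes of the secretory granule were mostly level, with 3 of 18 (16.7%) lower and none higher, against 5.14% and 6.84% of all measured genes. Their median log2 ratio was -0.08. The 3 were chromogranin A (Chga, 958 and 1945 CPM), the neurosecretory protein Vgf (6.69 and 27.6 CPM) and Ptprn, a granule membrane protein also called IA-2 (110.6 and 289.7 CPM). The log2 ratio of Chga, -1.02, was -0.85 by the mean of per-cell CPM. Pcsk1n, whose product inhibits the prohormone convertase Pcsk1, was at 180.2 and 686 CPM. It ranged from 0 to 651 CPM per cell (median 163.4) and from 129.4 to 1912 CPM (median 706), so the ranges overlap although the median of one block is beyond the top of the other. Pcsk2 and Cpe, which cut prohormones, had log2 ratios of -0.34 and -0.03.

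Transthyretin and other secreted proteins of the liver type were lower in the low-numbered block. Ttr, a carrier of thyroid hormone and retinol that alpha cells also make, had 102.75 to 8161 CPM per cell in the low-numbered block (median 2363) and 2204 to 51029.5 CPM in the high-numbered block (median 11084). The blocks overlap between 2204 and 8161 CPM. Summed, Ttr was at 2803 and 13392 CPM, 4.78-fold lower, and the ratio was -1.79 among cells with Gcg as the single hormone. Of 8 hepatic markers 6 were measured and 4 were at least 2-fold lower with none higher, a median log2 ratio of -1.94. The 4 were Ttr, alpha-fetoprotein (Afp, 25.7 and 143.5 CPM) and the apolipoproteins Apoa1 (1.25 and 17.7 CPM) and Apoa2 (6.85 and 23.1 CPM). Fibrinogen beta (Fgb) and Serpina1a went the same way, at -0.86 and -0.40, without reaching 2-fold.

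Malat1 and Meg3 were higher in the low-numbered block, while most other long noncoding and nuclear RNAs were within 2-fold. Malat1, a nuclear noncoding RNA on the minus strand at chr19:5795690-5802672, had 13371 and 2549 CPM, 5.24-fold apart. Per cell it ranged from 1046 to 37754 CPM (median 12657) and from 115.8 to 17609.9 CPM (median 2004), with overlap. The imprinted noncoding RNA Meg3 was at 2853 and 1386 CPM, and Kcnq1ot1, another, at 444 and 259 CPM. The log2 ratio of Meg3, 1.04, was 0.84 by the mean of per-cell CPM and 0.72 among cells with Gcg as the single hormone. Without the cells at 1000 CPM of insulin or Sst it was 0.88. Of 12 genes on the list of splicing factors and nuclear retained RNAs, Malat1 and Meg3 passed 2-fold, none was lower, and the median log2 ratio was 0.59. The 65 measured long intergenic noncoding RNA genes are a class chosen after the values were seen. Of these, 16 (24.6%) were higher and 7 (10.8%) lower, against 6.84% and 5.14% of all measured genes, with a median of 0.23. Long intergenic noncoding RNA genes took a median of 2.07% of a cell's reads in the low-numbered block and 1.02% in the high-numbered block. This difference in share rests on Malat1. The class summed to 21332 CPM in the low-numbered block and 10696 CPM in the high-numbered block, with Malat1 alone at 13371 and 2549 CPM. Among imprinted genes 5 of 15 (33.3%) were higher and 1 (6.67%) was lower, against 6.84% and 5.14% of all measured genes. The median log2 ratio of the list was 0.04, against 0.03 for all measured genes. The higher ones were Peg10, a retrotransposon-derived gene (10929 and 4331 CPM), Meg3, the growth regulators Plagl1 and Cdkn1c, and Nnat. The lower one was Mest (7.08 and 39.2 CPM). Without the cells at 1000 CPM of insulin or Sst the log2 ratio of Nnat was 0.67. That of Plagl1 was 0.79 with a pseudocount of 5 CPM.

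Ribosomal protein genes included more lower than higher genes. Of 81 measured, 13 were at least 2-fold lower and none was higher, and the median log2 ratio was -0.58. This class was also chosen after the values were seen. They took a median of 3.29% of a cell's reads (2.13 to 6.33%) in the low-numbered block and 5.05% (3.22 to 8.94%) in the high-numbered block, and these ranges overlap. None of 18 nuclear genes of the respiratory chain passed 2-fold. Their median log2 ratio was -0.32, with a range from -0.90 (Atp5b, a subunit of ATP synthase) to 0.30 (Ndufb3, a subunit of complex I).

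Processed pseudogenes, a class also chosen after the values were seen, were more often lower than higher. Of the measured ones 38.2% (39 genes) were at least 2-fold lower and 14.7% (15 genes) higher, against 5.14% and 6.84% of all genes, with a median log2 ratio of -0.56. Gm10051, a copy of Rpl28 at chr5:133475123-133475536, had 1.82 and 30.7 CPM while Rpl28 had 255 and 430.04 CPM, so its share of the pair was 0.711% and 6.66%. Gm13680, a copy of Rps4x at chr2:83353157-83353949, took 0.188% and 2.14% of its pair. The identities over the whole pseudogene were 99.8% and 98.5%. Their aligned stretches are given because pseudogene and parent differ in few letters, shown in capitals:
Gm10051: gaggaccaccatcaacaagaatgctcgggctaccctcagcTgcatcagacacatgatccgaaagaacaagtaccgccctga
Rpl28: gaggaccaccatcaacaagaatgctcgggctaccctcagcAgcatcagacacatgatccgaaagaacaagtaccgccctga
Gm13680: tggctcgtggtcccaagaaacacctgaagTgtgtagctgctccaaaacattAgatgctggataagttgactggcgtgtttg
Rps4x: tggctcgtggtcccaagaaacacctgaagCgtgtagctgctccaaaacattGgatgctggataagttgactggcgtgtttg
Gm12338 and Rpl34-ps1 took a larger share of their pair in the low-numbered block, and Gm10051 and Gm13680 a larger share in the high-numbered block. The same held for Gm10076, annotated as a lincRNA gene, with Rpl41 (5.79% and 12.7%), and for the processed pseudogenes Gm10243 with Rpl35a (4.24% and 12.6%) and Gm9843 with Fau (9.26% and 20.8%). Levels of single pseudogenes are uncertain for the reason given for Gm12338. No gene had reads in at least 80% of cells of 1 block and at most 20% of the other, and at 70% and 30% there were 8. Among those were Gm12338, Gm10051, Gm13680, Gm3355, RP23-58N8.1, Sox9 and Tmem59l. With at least 3 reads asked for, Gm12338 and Dlx5, a homeobox gene, passed 80% and 20%, and a Dlx5 read was seen in 31.1% and 97.1% of cells. Gm12338 is among these genes by the choice of the bound and is no result.

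Block ratios also moved with transcript length and base composition. Among protein-coding genes other than ribosomal ones, the median log2 ratio was -0.17 in the 1 of 5 equal groups with the shortest exon sequence (median 1897.5 bases) and 0.29 in that with the longest (median 10492 bases). Among the shortest 4.26% were higher and 7.48% lower, and in the longest 9.83% and 2.40%. By GC content of the longest transcript the medians ran from 0.21 in the lowest of 5 groups to -0.19 in the highest. Length and GC are not independent of each other, and their part in the results for single genes was not tested. Of the measured genes 95.2% had an entry in the annotation.

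**Figure D3:**
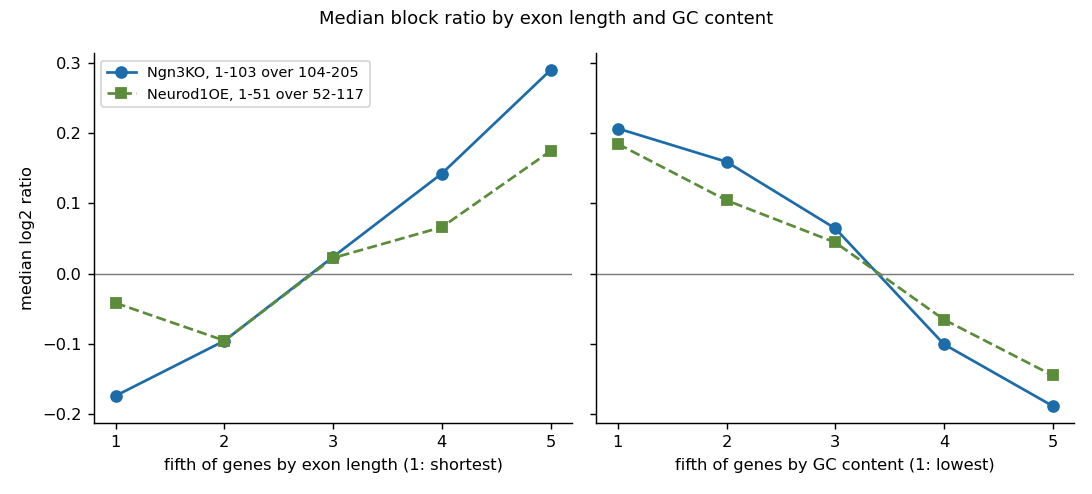
Median log2 block ratio of protein-coding genes other than ribosomal ones, in 5 equal groups by exon length (left) and by GC content (right), for the Ngn3KO blocks (circles) and the Neurod1OE blocks (squares). Medians run from -0.17 to 0.29 with length in the Ngn3KO blocks and in the Neurod1OE blocks are -0.04 for the shortest, -0.10 for the next and 0.17 for the longest.

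Early response genes, which cells switch on quickly after growth signals or stress, were higher in the low-numbered block. Of 15 listed genes 12 were measured, 7 were at least 2-fold higher and 1 lower, with a median log2 ratio of 1.31. Egr1, a zinc finger factor, was at 218 and 69.6 CPM, with 0 to 1431 CPM per cell (median 128.9) and 0 to 1309.6 CPM (median 12.3), ranges that overlap. Jun was at 103.8 and 35.3 CPM, Fos at 140.6 and 64.5 CPM, Ier2 at 60.5 and 18.3 CPM and Klf4 at 21.9 and 5.42 CPM. The lower one, the nuclear receptor gene Nr4a1, had 1 read in the low-numbered block and 443 in the high-numbered block, 87.6% of them in 1 cell (log2 ratio without pseudocount between -14.35 and -6.56). Among cells with Gcg as the single hormone the list median was 0.71. Of the 8 measured heat shock genes the inducible Hspa1b alone passed 2-fold, with reads in 33 and 3 cells (16.5 and 0.468 CPM), and the list median was 0.55.

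**Figure D4:**
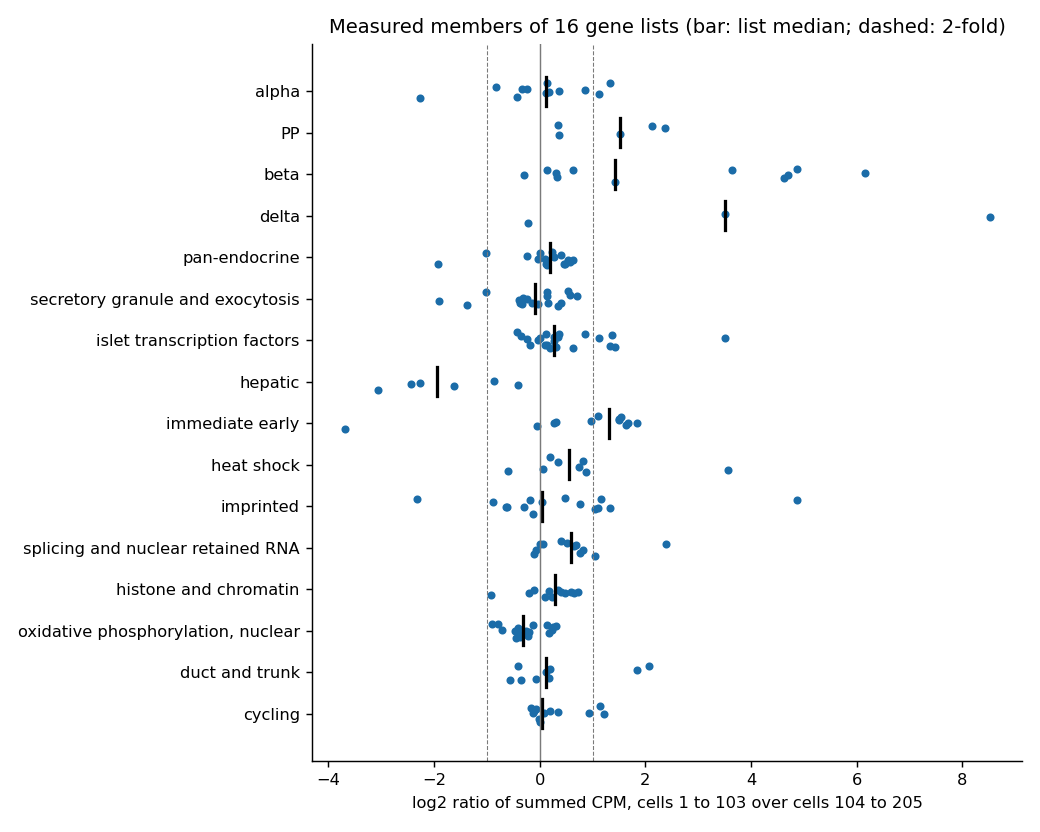
Log2 ratio of summed CPM, the low-numbered block over the high-numbered block, for the measured members of 16 gene lists, with the list median as a bar and 2-fold dashed. The PP (1.52), beta (1.42), delta (3.51) and early response (1.31) medians lie above 2-fold and the hepatic median (-1.94) below it, while alpha, pan-endocrine and granule medians lie near 0. The delta median rests on 3 genes and was 2.74 with top cells left out, 1.42 among cells with Gcg alone and 1.19 without the insulin and Sst cells. Both of these subsets leave out the cells richest in Sst.

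Further genes outside these lists also differed. Cd59a, a membrane inhibitor of complement, was read in 96 and 38 cells, at 118.3 and 19.5 CPM (per-cell medians 96.5 and 0 CPM). Tshz2, a zinc finger homeobox gene, was at 127.3 and 15.1 CPM with medians of 98.7 and 5.31 CPM, and Tet3, which oxidises methylated cytosine, at 112.05 and 21.9 CPM with medians of 64.8 and 6.395 CPM. In all of them the per-cell ranges overlap from 0. Lonrf2 (69.6 and 11.1 CPM) and the alcohol dehydrogenase Adh1 (69.4 and 13.2 CPM) were higher too. Klhl9, an adaptor of a ubiquitin ligase, was lower, with 10.0 to 1038 CPM per cell (median 235) and 17.2 to 5443 CPM (median 888). Lower as well were Mfap4, a matrix protein (12.8 and 92.1 CPM), Igfbpl1, of the insulin-like growth factor binding family (36.4 and 144.9 CPM), Tmem59l (7.91 and 52.2 CPM) and the arginine synthesis enzyme gene Ass1 (17.9 and 73.5 CPM).

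Markers of mesenchyme, endothelium, immune and erythroid cells were low in both blocks, and acinar and duct and trunk markers had larger sums. The mesenchyme list summed to 130.2 and 136.6 CPM with 1 of 9 genes measured and 3 and 1 at 0 reads, endothelium to 26.3 and 40.03 CPM with 1 of 8 measured and 2 and 0 at 0 reads, and the immune list to 41.4 and 31.8 CPM with 1 of 8 measured and none at 0 reads. The erythroid list summed to 5.19 and 6.60 CPM, with none measured and 6 of 8 genes at 0 reads in each block. The 15 acinar markers summed to 446 and 321 CPM with 5 measured and 2 higher (Cel and Ctrb1, of whose reads cell 74 held 49.6% and 45.3%). The 15 duct and trunk markers summed to 1302 and 1389.8 CPM, and 2 of 9 measured were higher. These were Sox9, a factor of duct and progenitor cells, with reads in 73 and 30 cells (42.3 and 11.1 CPM), and Tead2 (10.9 and 1.82 CPM). Of the 12 cycling genes Mki67 (128.8 and 54.8 CPM) and Cenpf (60.1 and 26.6 CPM) were higher (16.7%, against 6.84% of all measured genes). The list median was 0.04. With the top cell of each block left out the log2 ratio of Cenpf was 0.78.

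Xist, the RNA of the inactive X chromosome, was at 311 and 140.9 CPM, with 5.18 to 1159.6 CPM per cell (median 267) and 0 to 944 CPM (median 114.5). Y-linked genes had 41 reads in 22 cells (21.4%) of the low-numbered block and 0 reads in the high-numbered block (0 cells, interval of the share of cells with a read 0 to 3.55%), and no cell of either block had 10 Y-linked reads. The Pdx1CreNeurod1OE blocks differed in sex: Y-linked reads reached 10 or more in 50 of 51 cells of the low-numbered block and in 0 of 66 cells of the high-numbered block.

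The same division of the Pdx1CreNeurod1OE cells gave 718 genes at least 2-fold higher (6.98%) and 739 lower (7.18%) of 10286 measured. Of the genes higher in the low-numbered block of Ngn3KO, 26.3% were also higher in that of Neurod1OE, which is 25.2% of the genes higher there. The lower genes in common were 35.9% and 25.03% of the lists. Higher in Ngn3KO and lower in Neurod1OE were 23 genes, and 3 genes had the reverse. Across the 9667 genes measured in both, Spearman's rho between the 2 log2 ratios was 0.52, a description over genes that share depth, length and base composition. Malat1 (1.96), Ttr (-2.00), Tshz2 (2.32), Cd59a (2.81), Tet3 (2.18) and Egr1 (1.98) had ratios in the Neurod1OE blocks of the same sign and past 2-fold. So did the sums of Ppy (3108 and 1155 CPM) and Pyy (26775 and 6815 CPM), although the share of cells with 1000 CPM of Ppy was 27.5% (15.9 to 41.7%) and 22.7% (13.3 to 34.7%). Klhl9 (371 and 369 CPM), Sox9 (29.1 and 48.97 CPM), Lonrf2 (23.4 and 43.3 CPM) and Adh1 (27.5 and 48.5 CPM) were level or had the opposite sign there. The difference between the genotypes in these ratios was not tested, with 1 sample a block.

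**Figure D5:**
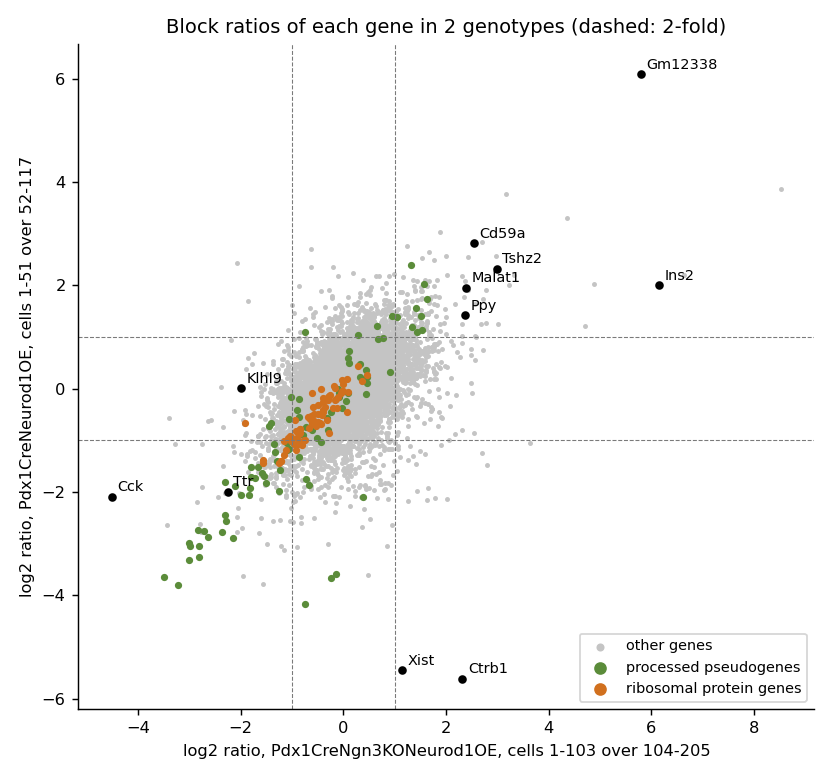
Log2 block ratio of each of the 9667 genes measured in both genotypes, Ngn3KO across and Neurod1OE up, each low-numbered over high-numbered block, with ribosomal protein genes and processed pseudogenes coloured and 2-fold dashed. Gm12338 (5.80 and 6.09) marks the bounds in both genotypes by their choice, Malat1 (2.39 and 1.96) has the same sign in both, Klhl9 (-2.00 and 0.01) lies on the axis, and Xist (1.14 and -5.45) and Ctrb1 (2.32 and -5.61) have opposite signs.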

How the data were processed

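Single GFP-positive cells were sorted into 384-well plates and read by Smart-seq3, per the labels' protocols. The authors deposited raw read counts per gene and cell without normalization. The submitters' processing notes name Trimmomatic 0.39, HISAT2 2.1.0, featureCounts 2.0.0 and mm10. The annotation, the strand setting, the treatment of reads that fit several places and the use of molecule barcodes are not given in the sources used here. The matrices hold 40824 genes and 92 ERCC sequences, and the latter were left out of totals. Mitochondrial transcripts were not analysed here.

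Counts were summed per title-number block and expressed as CPM of the plain total. A gene was measured at 10 CPM and reads in 10% of cells of 1 block, and called at 2-fold. Intervals at 95% are exact (Poisson for sums, Clopper-Pearson for shares) and cover counting error only: PCR reads are not independent molecules. At these depths Neurod1 in the low-numbered block has 287 to 298 CPM. Pseudogenes were aligned to GENCODE M21 transcripts with BLAST, and 36331 genes (89.0%) had 1 entry of their symbol. The ribosomal protein class was taken by symbol, without the S6 kinase genes, Rps19bp1 and Rpl7l1. The procedure was tested on simulated cells with planted changes and no plate or animal effect. That test checks only whether planted changes are recovered, and cannot judge differences between unreplicated blocks. No doublet caller was run, and each well was sorted to hold 1 cell. No cell filter was applied. Sequences come from GENCODE M21.

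The blocks, the gene lists and the rule for named genes were chosen with earlier results of these data known. Named were 22 genes chosen by name, up to 12 higher and 12 lower genes that were 2-fold apart by 3 ways of summing with 50 CPM in the higher block, up to 6 and 6 among predicted and ribosomal genes, and up to 4 members a list with the largest absolute ratios. Not all of them are given in the text, and some are not reported here. Named after their values were seen were the Y-linked genes and Cdkn1c, Cox7c, Cpe, Dlx5, Fau, Fgb, Fos, Gm10051, Gm13680, Gm3355, Jun, Ndufb3, Pcsk2, RP23-58N8.1, Rpl28, Rpl34, Rpl35a, Rpl41, Rps4x and Serpina1a. So were G6pc2, Slc30a8 and Ucn3. Alternatives were TMM and DESeq2 scaling, totals without hormone genes, the mean of per-cell CPM, the top cell left out, subsets of cells, thinning, pseudocounts and filters. Scaling factors came from edgeR 4.0.16 and DESeq2 1.42.0 in R 4.3.3, and all else was computed in Python 3.11.15 with pandas 2.3.3, numpy 2.4.6 and scipy 1.17.1.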

Additional observations from a re-analysis of the deposited data

Results flagged for a closer look

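Of the named genes measured in both genotypes, 3 were past 2-fold in opposite directions in the blocks of the 2 genotypes, and with 1 sample a block the difference was not tested. Xist was at a log2 ratio of 1.14 in the Ngn3KO blocks and -5.45 in the Neurod1OE blocks, whose low-numbered block carries Y-linked reads in 50 of 51 cells. The digestive enzyme genes Ctrb1 and Cel were at 2.32 and 3.63 in the Ngn3KO blocks, where cell 74 held 45.3% and 49.6% of the reads of the low-numbered block, and at -5.61 and -1.06 in the Neurod1OE blocks.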

How the results depend on the processing

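No paired analysis was possible because the results come from no test and the cells' numbers pair nothing. Across 14 other settings, the counts of higher and lower genes kept within 1.5 times of 687 and 516 except with a pseudocount of 5 CPM, a filter at 50 CPM and no filter. Higher and lower genes were 4.48% and 3.17% of those tested with a pseudocount of 5 CPM, 4.97% and 4.26% of 4505 with the filter at 50 CPM, and 3.81% and 2.87% of 40824 with no filter, against 6.84% and 5.14%. The count of genes read in at least 80% of cells of 1 block and at most 20% of the other, 0, became 3 in thinned cells, 2 with 3 reads asked for and 8 at 70% and 30%. Each count above 0 includes Gm12338, whose level was known when the bound was chosen. At a limit of 300 CPM, 64.1% of the low-numbered block and 27.5% of the high-numbered block had Ppy, and at 3000 CPM 22.3% and 1.96%. The shares of cells with 2 or more hormones were 82.5% and 52.9% at 300 CPM, and 25.2% and 9.80% at 3000 CPM. Thinning and leaving out 10 cells on each side of the bound kept these shares within their intervals.

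Of 85 named genes past 2-fold, 60 stayed past it in all 12 settings tried on single genes. Many of these genes were named because they were 2-fold apart by the mean of per-cell CPM and without the top cell. Both are among the settings, so the count is partly fixed by the choice of genes and does not measure stability over all genes. Ghrl (0.23), Ins1 (-0.60) and Mlxipl (-0.37) changed sign among cells with Gcg alone, and Ins1 (-0.30) and Mlxipl (-0.21) also without cells at 1000 CPM of insulin or Sst, a setting chosen after seeing the data. Both settings leave out cells rich in these transcripts. Depth limits genes near 10 CPM, and Neurog3 is below that level.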
